A study of Mus musculus with 2 samples.

Results

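Blood vessels of the embryonic face were described here through 10 genes that encode vascular ligands, receptors and Notch pathway proteins: Vegfa, Kdr, Flt1, Flt4, Tek, Tie1, Apln, Aplnr, Dll4 and Mfng. They were taken by symbol from the 27998 genes of the count tables, and all 10 were found once in each of 2 libraries. The cells came from the E11.5 mouse lambdoid junction, the part of the upper face where nasal and maxillary prominences meet, and were measured with 10x Genomics 3' single-cell RNA sequencing. One library was wild-type. The other was labelled Crect; ROSA26-lacZ, carrying Crect, a Cre recombinase transgene active in ectoderm and not directed to vessels, together with lacZ as a reporter allele of ROSA26. Both strains are labelled C57BL/6J, both libraries were of the same age, and each pooled trypsin-dissociated tissue of 4 to 5 embryos without a sort.

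Vegfa is the principal growth factor for vessels. It acts on the receptor tyrosine kinases Kdr, which carries most of the signal, and Flt1, which binds Vegfa tightly and holds much of it away from Kdr, whereas Flt4 is the receptor for Vegfc and Vegfd and is used most in lymphatic and growing vessels. Tek is the angiopoietin receptor, and Tie1 is a related receptor without a well-established ligand that pairs with Tek. Apln is a peptide ligand made by sprouting endothelial tip cells, and Aplnr is its G protein-coupled receptor. Dll4 is a Notch ligand of arteries and tip cells, and Mfng is a Golgi glycosyltransferase that adds sugars to Notch receptors and changes their response to ligands.

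The annotation places the 10 genes apart from each other, with coordinates of build mm10 and GENCODE vM21. Vegfa lies at chr17:46016993-46032369 on the minus strand, Kdr at chr5:75932827-75978458 (minus) and Flt1 at chr5:147561604-147726011 (minus). Flt4 lies at chr11:49609263-49652739 (plus), Tek at chr4:94739289-94874976 (plus) and Tie1 at chr4:118471191-118490061 (minus). Apln lies at chrX:48025146-48034853 (minus) and its receptor gene Aplnr at chr2:85136225-85139923 (plus). Dll4 lies at chr2:119325784-119335962 (plus) and Mfng at chr15:78755882-78773475 (minus). Dll4 was the only member whose annotated span overlapped another gene, the opposite-strand transcript Gm14207, and no source used here says whether the counting used strand. All 10 are protein-coding, and 3' UMI counts do not tell their isoforms apart.

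Promoter sequence from RefSeq (GRCm38.p6) had entries for 8 of the 10 genes. The 250 bases before each start were searched on both strands for the ETS cores CAGGAA and CCGGAA and for the hypoxia response cores ACGTG and GCGTG, and no match overlapped another. The windows of Vegfa, Kdr, Apln and Dll4 are shown because the results below turn on these genes, with the Kdr window cut to 247 bases because its other 3 lie inside the annotated gene. Capitals mark the matches, which appear as their reverse complement where they lie on the opposite strand. They are given 5' to 3' on the gene's own strand, for Vegfa at chr17:46032378-46032627 (minus), Kdr at chr5:75978459-75978705 (minus), Apln at chrX:48034854-48035103 (minus) and Dll4 at chr2:119325534-119325783 (plus).
Vegfa: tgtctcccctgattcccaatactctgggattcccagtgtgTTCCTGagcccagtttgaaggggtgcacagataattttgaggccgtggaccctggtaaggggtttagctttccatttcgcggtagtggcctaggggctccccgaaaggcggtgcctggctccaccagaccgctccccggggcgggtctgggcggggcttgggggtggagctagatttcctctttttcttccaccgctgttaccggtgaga
Kdr: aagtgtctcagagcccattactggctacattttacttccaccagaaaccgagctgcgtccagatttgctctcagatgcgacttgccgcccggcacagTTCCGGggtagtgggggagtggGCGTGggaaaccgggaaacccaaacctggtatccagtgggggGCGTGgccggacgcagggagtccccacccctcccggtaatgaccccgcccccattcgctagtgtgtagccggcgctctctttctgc
Apln: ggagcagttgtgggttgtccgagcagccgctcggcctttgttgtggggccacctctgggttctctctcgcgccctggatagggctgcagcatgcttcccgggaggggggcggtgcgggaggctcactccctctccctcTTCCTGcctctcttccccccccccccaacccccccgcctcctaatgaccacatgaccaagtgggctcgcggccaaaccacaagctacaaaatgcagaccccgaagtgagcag
Dll4: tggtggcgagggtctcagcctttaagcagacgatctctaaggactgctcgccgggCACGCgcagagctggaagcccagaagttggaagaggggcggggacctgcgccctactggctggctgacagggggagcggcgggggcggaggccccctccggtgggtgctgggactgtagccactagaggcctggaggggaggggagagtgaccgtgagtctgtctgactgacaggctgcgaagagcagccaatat
Vegfa and Apln each held 1 CAGGAA in these windows, Kdr held 1 CCGGAA and 2 GCGTG, and Dll4 held 1 GCGTG. Of the other windows, Tek held 2 CAGGAA, Tie1 held 1 CAGGAA and Flt1 held 1 GCGTG, whereas Flt4 held none of the 4 motifs. The Flt4 window lies wholly inside the annotated gene. So do 212 of the 250 bases of the Tie1 window, with its match among them. A second Vegfa entry inside the gene held 1 ACGTG and 1 GCGTG. Such short motifs are common: 35.1% of 32851 promoters of the same length held at least 1 of the 2 ETS cores and 38.6% held at least 1 of the 2 hypoxia response cores. The matches are a description of letters and not of bound sites.

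There were 7966 barcodes with 126638790 UMIs in the wild-type library and 6894 with 127765199 UMIs in that from Crect lacZ embryos. Cells with at most 10% of their UMIs from mitochondrial genes were kept, 7909 and 6687 in number, with medians of 14112 and 17581 UMIs. The libraries shared 76 barcodes, 71 of them kept, and the median correlation between cells with the same barcode (0.769) was close to that between different shared barcodes (0.762). Cells were clustered without the 10 genes and their pathway partners and named from marker lists, by thresholds set after the data were seen, so the names are rebuilt and end in "like". This gave 214 wild-type and 120 Crect lacZ endothelium-like cells, 5495 and 4904 mesenchyme-like cells and 947 and 688 ectoderm-like cells. The summed level of 9 endothelium markers (Cdh5, Pecam1, Cldn5 and others) was 4456 and 4448 CPM (UMIs of a gene per 1000000 UMIs of the summed cells) in endothelium-like cells, against 45.5 and 47.6 CPM in mesenchyme-like cells. No member of that marker list was at 0 in any of these classes.

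The first comparison asked in which tissue each of the 10 genes was transcribed. In endothelium-like cells 9 of the 10 genes were higher than in mesenchyme-like cells, by 32.7-fold for Apln and by 137-fold or more for the receptors, Dll4 and Mfng. Vegfa alone went the other way and was 5.90-fold lower in endothelium-like cells. Most of its UMIs lay in the mesenchyme-like cells, which also held most UMIs of all genes. UMIs were summed per library and class, and edgeR's quasi-likelihood test with library as a block compared the classes. A call needed a Benjamini-Hochberg adjusted p under 0.05 over all genes and a fold of 2 or more. By that rule 13% of 13807 genes were higher, 16.2% were lower and 29.2% were called in all. The median log2 difference was 7.48 over the 10 genes and -0.08 over all genes. The genes were held out of the clustering but correlate with genes used in it, so these p-values are too small. The spread they rest on is that of class differences between 2 libraries of different genotype.

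**Figure D1:**
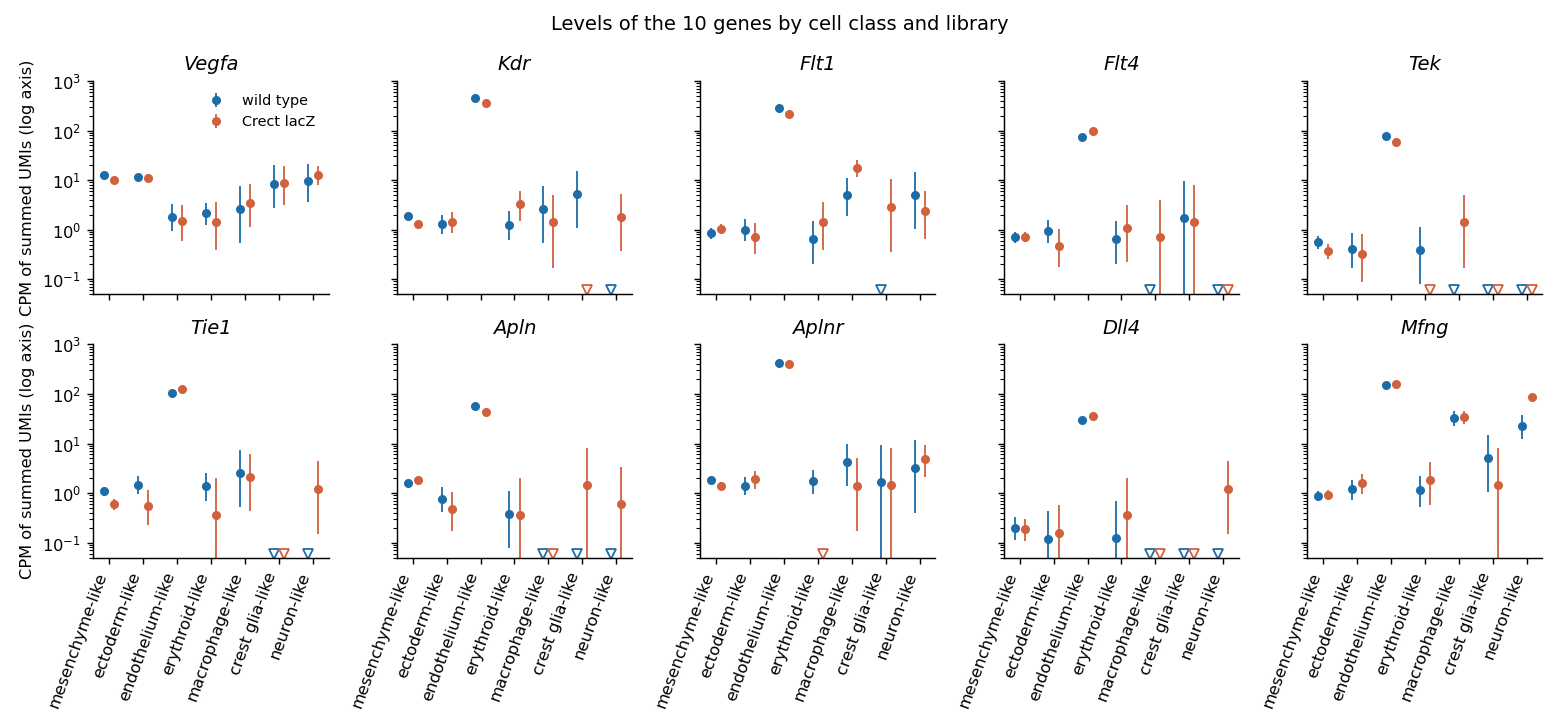
Level of each of the 10 genes in 7 cell classes (CPM of summed UMIs, log axis), wild-type library in blue and Crect lacZ library in red. Points are library values, bars are exact 95% Poisson intervals for counting error, and open triangles at the foot of the axis mark 0 UMIs. For 9 genes the endothelium-like points stand above all other classes, while Vegfa is lowest or nearly so there.

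The VEGF receptors carried this pattern in both libraries. Kdr was at 448 CPM in wild-type endothelium-like cells (2675 UMIs) and 364 CPM in the Crect lacZ ones (1698 UMIs), against 1.85 and 1.28 CPM in mesenchyme-like cells. The classes were far apart in each library, and the fitted difference for Kdr was 299-fold (95% interval 257 to 348, adjusted p = 3.51e-18). Flt1, the decoy receptor, was at 280 and 217 CPM against 0.842 and 1.04 CPM, a 296-fold difference (245 to 358, adjusted p = 2.77e-17). Flt4 was at 75.3 and 96.4 CPM against 0.706 and 0.714 CPM, a 137-fold difference (109 to 172, adjusted p = 1.23e-15). Endothelium-like values of all 3 receptors lay above every mesenchyme-like value by more than the gap between the libraries.

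The angiopoietin receptor Tek was at 76.5 CPM (457 UMIs) and 59.1 CPM (276 UMIs) in endothelium-like cells and at 0.557 and 0.374 CPM in mesenchyme-like cells. Its partner Tie1 was at 104 CPM (619 UMIs) and 128 CPM (599 UMIs), against 1.09 and 0.594 CPM. The fitted differences were 167-fold for Tek (132 to 210, adjusted p = 1.05e-15) and 159-fold for Tie1 (119 to 212, adjusted p = 1.57e-14). In endothelium-like cells the Tek level was higher in the wild-type library and the Tie1 level higher in the Crect lacZ library, so the pair did not share a direction between the libraries.

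Both genes of the apelin pair were higher in endothelium-like cells. Aplnr was at 428 CPM (2556 UMIs) and 395 CPM (1844 UMIs) there and at 1.83 and 1.40 CPM in mesenchyme-like cells, a 293-fold difference (250 to 343, adjusted p = 4.32e-18). Apln was at 55.9 CPM (334 UMIs) and 42.4 CPM (198 UMIs) there and at 1.57 CPM (127 UMIs) and 1.84 CPM (167 UMIs) in mesenchyme-like cells, a 32.7-fold difference (25.1 to 42.7, adjusted p = 6.34e-13). The mesenchymal level of Apln was thus 2.81% and 4.33% of its endothelial level, while the other 8 genes that were higher in endothelium-like cells stood between 0.301% and 1.05%. Of the 9 endothelium markers, 7 stood at 0.227% to 0.98% of their endothelial level in mesenchyme-like cells, and Egfl7 (2.39% and 2.83%) and Ramp2 (2.23% and 2.44%) stood higher. Apln UMIs were spread thinly over the mesenchyme-like cells, with 1 or more in 126 of 5495 wild-type and 164 of 4904 Crect lacZ cells. The part of free endothelial RNA in these values was not tested.

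Mesenchymal Apln differed from that of the ectoderm. In ectoderm-like cells Apln was at 0.769 CPM (13 UMIs) and 0.476 CPM (6 UMIs), or 1.38% and 1.12% of its endothelial level, and was 2.61-fold lower than in mesenchyme-like cells (1.58 to 4.33, adjusted p = 0.00278, edgeR). It was lower in both libraries, by CPM ratios of 0.489 (counting interval 0.253 to 0.867) and 0.259 (0.0939 to 0.577). Apln was the only one of the 10 genes called between these tissues, where 21.4% of 13807 genes were called. The genes tested were set in the fit shared with endothelium-like cells, so members sparse in both tissues entered it. Ectoderm-like cells held 2 Dll4 UMIs in each library and 7 and 4 Tek UMIs, so the lack of a call says little for such genes. Without the Crect lacZ library no member was 2-fold apart after scaling. By a gate on markers in place of clusters, 2 members were counted. Mfng was 1.55-fold higher in ectoderm-like cells (1.10 to 2.18, adjusted p = 0.0354), which is under the 2-fold limit, at 1.18 CPM and 1.59 CPM against 0.867 CPM and 0.934 CPM. The summed endothelium markers were at 37.2 and 33.2 CPM in ectoderm-like cells, somewhat under the mesenchymal values, and their part in the Apln difference was not tested.

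Vegfa had the reverse distribution. It was at 12.9 CPM in wild-type mesenchyme-like cells (1042 UMIs) and 9.85 CPM in the Crect lacZ ones (896 UMIs), and at 11.48 CPM (194 UMIs) and 11.0 CPM (139 UMIs) in ectoderm-like cells. Endothelium-like cells held 11 Vegfa UMIs in the wild-type library (1.84 CPM) and 7 in the Crect lacZ library (1.5 CPM). The endothelial level was below both tissues in each library, and the 5.90-fold difference from mesenchyme-like cells had an interval of 4.04 to 8.61 (adjusted p = 2.94e-07, edgeR). Ectoderm-like and mesenchyme-like cells did not differ by the test. The fitted ratio of ectoderm over mesenchyme was 1.02 (0.846 to 1.23, adjusted p = 0.947), an interval that leaves out a 2-fold difference either way. Of all Vegfa UMIs, mesenchyme-like cells held 74.1% and 75.9%, ectoderm-like cells 13.8% and 11.8%, and endothelium-like cells 0.782% and 0.593%. Of the UMIs of all genes these classes held 63.9% and 72.0%, 13.4% and 9.97%, and 4.73% and 3.69%. The mesenchymal and ectodermal shares of Vegfa thus lie near the sizes of these classes. Neuron-like cells (9.81 and 12.6 CPM) and crest glia-like cells (8.54 and 8.70 CPM) overlapped the values of mesenchyme and ectoderm. Macrophage-like cells (2.56 and 3.53 CPM) and erythroid-like cells (2.15 and 1.44 CPM) lay near the endothelium-like cells. Each of those 4 smaller classes held 21 Vegfa UMIs or fewer in a library.

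Within the source tissues Vegfa was broad. Among mesenchymal sub-clusters with 20 or more cells in each library, its level ran from 5.97 CPM, on 2 UMIs, to 18.1 CPM in the wild-type library and from 6.43 to 14.1 CPM in the Crect lacZ library. Among ectodermal sub-clusters it ran from 8.62 to 15.6 CPM and from 5.26 to 16.5 CPM. In 1 smaller mesenchymal sub-cluster, 42 wild-type cells held 0 Vegfa UMIs and 13 Crect lacZ cells held 1. No endothelial sub-cluster passed 3.78 CPM. Maxillary-like mesenchyme held 11.98 and 8.48 CPM of Vegfa, and the 2 nasal-like sub-clusters held 12.5 and 13.6 CPM in the wild-type library and 7.27 and 9.02 CPM in the Crect lacZ library. The fitted ratio of maxillary over nasal was 0.966, a fold of 1.03 with an interval of 0.818 to 1.31 (adjusted p = 0.893). Of the 7 members with enough UMIs to test there, edgeR and DESeq2 called 0, and 0 had an unadjusted p under 0.05, where 5.58% of 12351 genes were called. Mfng was at the largest distance, 2.11-fold lower in maxillary-like cells with an interval of 0.962 to 4.61 (adjusted p = 0.201). Flt4, Tek and Dll4 had too few UMIs in mesenchyme to enter that test.

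**Figure D2:**
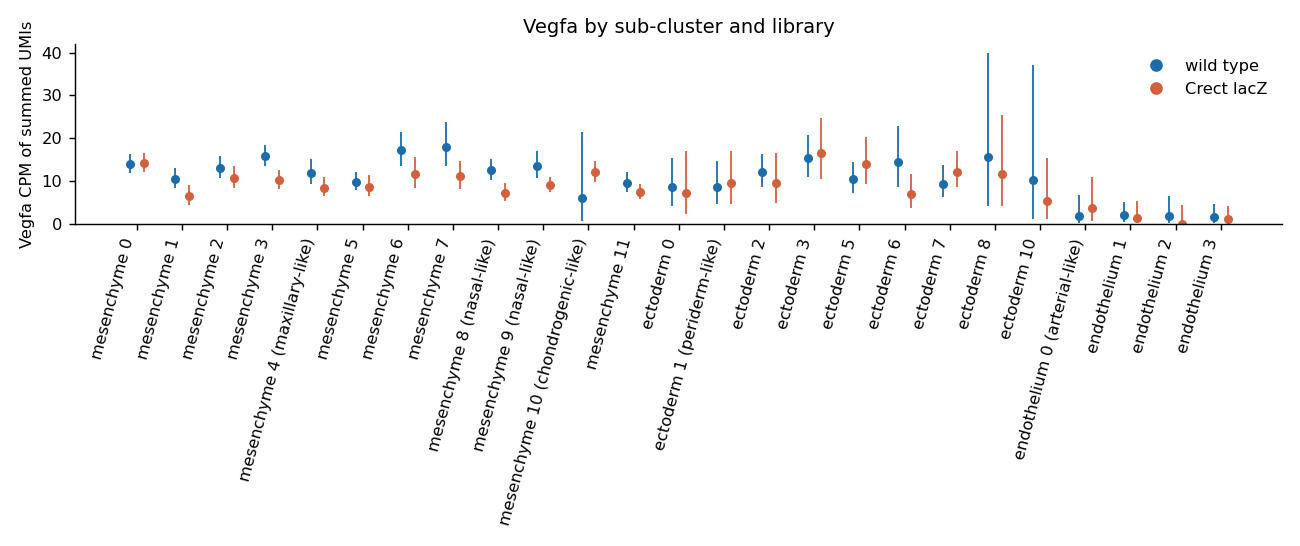
Vegfa level (CPM of summed UMIs, linear axis from 0) in each sub-cluster of mesenchyme-like, ectoderm-like and endothelium-like cells with 20 or more cells in each library, wild-type library in blue and Crect lacZ library in red, with exact 95% Poisson intervals. Sub-clusters of mesenchyme and ectoderm sit between 5.26 and 18.1 CPM, while the 4 endothelial ones sit at 3.78 CPM or less.

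Both Notch pathway members were mainly endothelial. Dll4, the ligand, was at 29.3 CPM (175 UMIs) and 36.0 CPM (168 UMIs) in endothelium-like cells. Only 16 and 17 Dll4 UMIs fell in the mesenchyme-like cells (0.198 and 0.187 CPM), a 191-fold difference (132 to 275, adjusted p = 2.33e-13, edgeR). Mfng was at 153 CPM (912 UMIs) and 158 CPM (737 UMIs) against 0.867 and 0.934 CPM, a 196-fold difference (167 to 231, adjusted p = 1.14e-17). The endothelial Mfng level was nearly equal in both libraries, and its level in mesenchyme-like cells was 0.568% and 0.592% of that level.

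Mfng was also found outside vessels. In macrophage-like cells it was at 32.4 CPM (38 UMIs in 17 of 54 cells) and 33.9 CPM (48 UMIs in 22 of 45 cells). In neuron-like cells it was at 22.9 CPM (14 UMIs in 4 of 32 cells) and 85.4 CPM (142 UMIs in 30 of 80 cells), with up to 22 UMIs in 1 cell. Both classes were above the mesenchymal level and below the endothelial one in each library, and their order relative to each other was opposite in the 2 libraries. Cells with Mfng rarely held Cdh5, the endothelial cadherin: 0 of 17 and 2 of 22 such macrophage-like cells and 0 of 4 and 1 of 30 such neuron-like cells had a UMI of it. Macrophage-like cells with Mfng held a median of 5 and 5.5 UMIs of the 9 endothelium markers, against 1 and 2 in those without, and the part of other cells' RNA was not tested. With doublet calls left out the CPM ratio of Crect lacZ to wild-type macrophage Mfng went from 1.04 to 0.6. In neuron-like cells both medians were 0.

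Values of Kdr, Tie1 and Flt1 in the smaller classes are given next and were chosen after they were seen. The 10 wild-type megakaryocyte-like cells held 29 UMIs of Kdr in 6 cells (78.9 CPM) and 27 UMIs of Tie1 in all 10 cells (73.4 CPM). None of them had a UMI of Cdh5, the only 1 of the 9 endothelium markers at 0 there. The 9 markers summed to 307 CPM in these cells, against 45.5 CPM in wild-type mesenchyme-like cells. Those with Kdr held a median of 11 UMIs of the markers, and those without it 8. The part of other cells' RNA was not tested. The Crect lacZ library had 2 megakaryocyte-like cells, with 4 UMIs of Kdr and 1 of Tie1, too few to compare. Flt1 was at 5.12 CPM (6 UMIs) in wild-type and 17.6 CPM (25 UMIs) in Crect lacZ macrophage-like cells, with 13 of the 25 UMIs in 1 cell. Macrophage-like cells with Flt1 held a median of 7.5 and 10.5 UMIs of the 9 endothelium markers, against 1 and 2 in those without. The CPM ratio of the 2 libraries for macrophage Flt1 went from 3.44 to 0.475 when doublet calls were left out.

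Single endothelium-like cells usually held several receptors at once. All 5 receptor tyrosine kinases (Kdr, Flt1, Flt4, Tek and Tie1) were detected in 117 of 214 wild-type cells (54.7%) and 75 of 120 Crect lacZ cells (62.5%), and none in 4 and 1 cells. The medians per cell were 23759.5 and 31246.5 UMIs in this class, against 13963 and 17928 in mesenchyme-like cells, so shares were also taken after thinning each cell to 3000 UMIs. No cell of these 2 classes was under that depth. Kdr was then detected in 72.4% and 63.3% of endothelium-like cells, against 98.1% and 98.3% unthinned, and in 0.546% and 0.224% of mesenchyme-like cells. Aplnr was detected in 71.0% and 66.7% of thinned endothelium-like cells, Flt1 in 52.8% and 39.2% and Mfng in 38.8% and 35.8%. Flt4 was detected in 18.7% and 30%, Tie1 in 21.5% and 34.2%, Tek in 17.8% and 13.3%, Apln in 13.1% and 12.5% and Dll4 in 6.07% and 11.7%. In thinned mesenchyme-like cells each of these 8 genes was detected in 0.0408% to 0.51%.

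**Figure D3:**
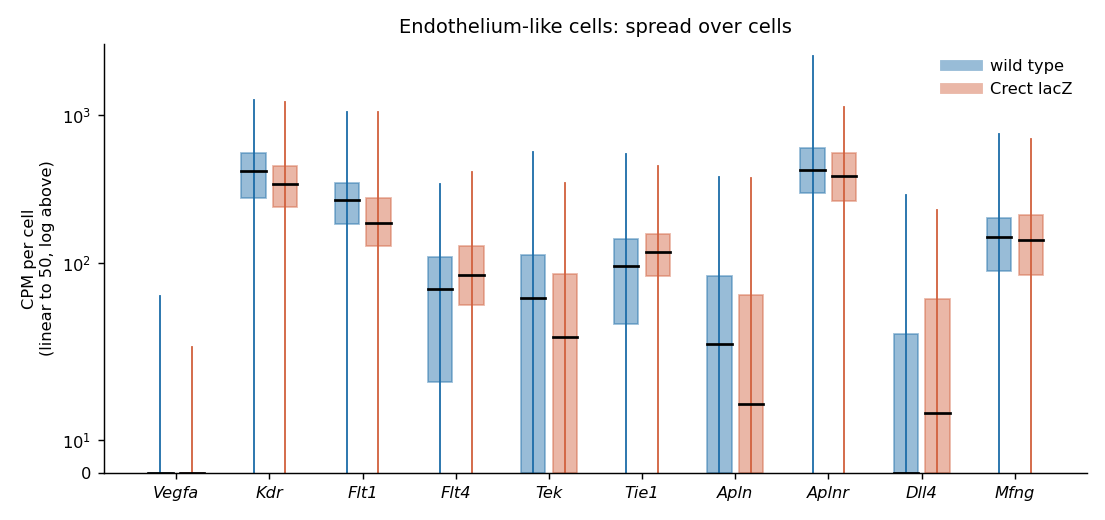
Spread of each gene over single endothelium-like cells (CPM per cell, linear up to 50 and log above), 214 wild-type cells in blue and 120 Crect lacZ cells in red. Black lines are medians, boxes span the quartiles and thin lines run from the lowest to the highest cell. Kdr, Flt1, Aplnr and Mfng have medians well above 0 in both libraries, whereas the median of Dll4 is 0 in the wild-type library and 18.2 CPM in the Crect lacZ library.

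Cell to cell, Kdr had a median of 416 CPM with quartiles of 277 and 550 CPM in wild-type cells, and a median of 342 CPM with quartiles of 238 and 449 CPM in Crect lacZ cells. For Dll4, 129 of 214 and 57 of 120 cells held no UMI, and the highest cells reached 287 and 230 CPM. Apln had no UMI in 80 and 54 cells and reached 383 and 372 CPM. Kdr was thus detected in nearly every unthinned cell, and Dll4 and Apln in a part of them. Detection depends on level and depth, and Dll4 and Apln were at lower levels than Kdr. A cell with no UMI is therefore not shown to lack the gene.

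The second comparison asked how the genes varied between arterial-like and other endothelium-like cells. One sub-cluster led by the arterial genes Gja4, Hey1, Unc5b and Efnb2 held 32 wild-type and 20 Crect lacZ cells, and its summed arterial markers were at 439 and 579 CPM, against 104 to 234 CPM in the other 3 sub-clusters, which stayed unnamed. Dll4, though held out of the clustering, was also among the leading genes of the arterial-like sub-cluster. Dll4 was at 56.1 CPM (60 UMIs) and 74.3 CPM (59 UMIs) in arterial-like cells. In the other sub-clusters Dll4 was at 41.7, 8.17 and 13.1 CPM in the wild-type library and 46.3, 19.3 and 17.8 CPM in the Crect lacZ library. Its arterial-like level was thus the highest in each library, followed by the sub-cluster whose leading genes included Kcne3 and Nid2. The fitted difference between arterial-like and all other endothelium-like cells was 2.46-fold (1.90 to 3.20, adjusted p = 3.79e-09, edgeR), where 1.25% of 9742 genes were called.

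Apln was lowest in arterial-like cells, where Dll4 was highest. It was at 29.0 CPM (31 UMIs) and 15.1 CPM (12 UMIs) there. In the other sub-clusters it was at 56.4, 63.6 and 66.5 CPM and at 58.1, 40.9 and 43.3 CPM. Arterial-like Apln was 2.47-fold lower by the fit (1.83 to 3.34, adjusted p = 7.49e-07, edgeR). The sub-cluster next in Dll4, with Kcne3 and Nid2, was the one at 56.4 and 58.1 CPM of Apln. Tek was at 52.4 and 31.5 CPM in arterial-like cells, 1.75-fold lower (1.37 to 2.24, adjusted p = 0.000472), Flt4 was 1.56-fold lower (1.25 to 1.95, adjusted p = 0.00334) and Aplnr 1.44-fold lower (1.23 to 1.68, adjusted p = 0.00037), all under the 2-fold limit. Kdr, Flt1, Tie1 and Mfng did not pass the test. The fold for Kdr was 1.04 with an interval of 0.894 to 1.21, and for Flt1 it was 1.10 with an interval of 0.94 to 1.29. Vegfa had too few UMIs to enter this test.

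The 2 arterial differences were not equally stable. The sub-clusters reported are 1 of 6 settings tried, chosen after their sizes were seen. Dll4 was called under all 10 definitions of arterial-like cells, with log2 differences of 1.08 to 1.94. The definitions ran from 23 wild-type and 15 Crect lacZ cells to 120 and 86. All of them used the same arterial marker list and the same 2 libraries, so they are not independent of each other. As in the first comparison, the genes correlate with those that define the cells, so the p-values are too small. Apln was called under 3 of the 10, with log2 differences of -1.31 to -0.13 and adjusted p up to 0.73. The smaller differences moved as well: Tek ran from -1.13 to -0.22 and was called under 1 of the 10 (adjusted p up to 0.557), Aplnr ran from -0.97 to -0.09 (up to 0.685), and Flt4 ran from -0.65 to 0.10 (up to 0.9996), so that its direction was not kept. With the library block left out no gene at all was called in this comparison (772 had an unadjusted p under 0.05), and the count by DESeq2 was 23 genes.

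**Figure D4:**
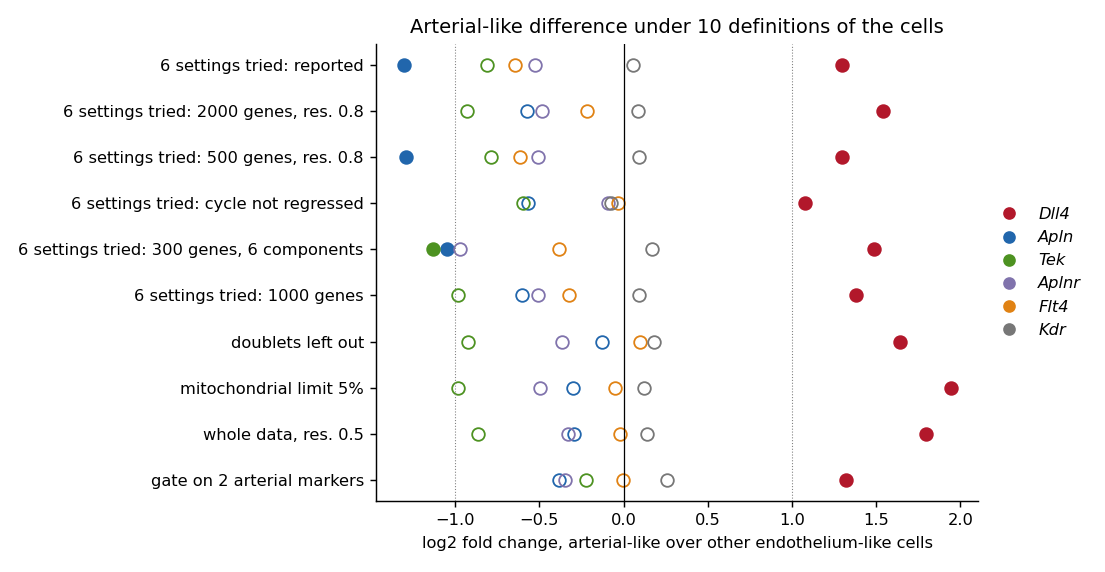
Log2 difference of arterial-like over other endothelium-like cells for 6 of the genes under 10 ways of defining the cells, 1 way per line. Filled points passed the call (adjusted p under 0.05 and 2-fold, dotted lines) and open points did not. Dll4 is filled on all 10 lines, and Apln is filled on 3 and lies at -0.13 at its nearest to 0.

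Partner genes of the same pathways were taken from lists chosen with earlier results of these data known, and their counts stand beside the 13% of all genes that were higher and the 16.2% that were lower in endothelium-like cells. Of 12 tested partners of VEGF, angiopoietin and apelin, 3 were higher and 6 lower in endothelium-like than in mesenchyme-like cells (median log2 difference -1.01). The Vegfa co-receptor Nrp1 was 14.3-fold higher, the semaphorin receptor Plxnd1 106-fold higher, and the Flt1 ligand Vegfb 2.85-fold lower. Of 18 Notch partners, 7 were higher and 5 lower (median 0.47). Notch1 was 21.7-fold higher and the Notch feedback gene Nrarp 82.5-fold higher, whereas the receptors Notch3 and Notch2 were 6.43-fold and 4.64-fold lower.

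Of 17 tested endothelial transcription factors 14 were higher and 1 lower (median 4.75), with Sox18 251-fold and Hhex 185-fold higher, while Gata2 was 3.33-fold lower. All 14 other endothelial receptors were higher (median 5.48), led by Cd93 at 232-fold and the adhesion G protein-coupled receptor Adgrf5 at 219-fold. Of 27 hypoxia response genes, a group to which Vegfa itself belongs as a target of hypoxia, 10 were higher and 5 lower (median 0.45). Epas1, which encodes HIF-2 alpha, was 191-fold higher and the glucose transporter Slc2a1 8.71-fold higher, and Bnip3 was 3.15-fold lower. All 8 tip cell genes were higher (median 3.75), among them Igfbp3 at 157-fold and Kcne3 at 79.4-fold.

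In ectoderm-like against mesenchyme-like cells 12.8% of all genes were higher and 8.64% lower. The VEGF, angiopoietin and apelin partners held 0 higher and 8 lower genes of 12, with the co-receptor Nrp2 3.78-fold lower. The Notch partners held 7 higher and 2 lower of 18, with Nrarp 36.2-fold and Notch1 10.5-fold higher. The hypoxia list held 7 higher and 1 lower of 27, with Slc2a1 3.54-fold and Pdk1 2.99-fold higher, next to a Vegfa level that did not differ by the test. Endothelial transcription factors held 2 higher and 6 lower of 17, with Foxo1 2.37-fold higher and Gata2 10.5-fold and Klf4 3.36-fold lower. The other endothelial receptors held 0 higher and 3 lower of 14. The tip cell list held 2 higher and 3 lower of 8, with Igfbp3 14.8-fold and Trp53i11 3.41-fold higher.

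In arterial-like against other endothelium-like cells 0.79% of all genes were higher and 0.462% lower, so a list of 14 with 0 calls lies near the share over all genes. The tip cell genes Esm1 and Igfbp3 were 3.74-fold and 2.98-fold higher, Slc2a1 was 2.05-fold and Sox7 2.19-fold higher, and 0 of 14 Notch partners and 0 of 14 other receptors were called. Without adjustment, 4 of those Notch partners and 6 of those receptors had a p under 0.05. Counts for the other lists were 1 higher of 7 VEGF, angiopoietin and apelin partners, 1 higher and 1 lower of 17 transcription factors, 2 higher of 24 hypoxia genes and 2 higher of 8 tip cell genes. In maxillary-like against nasal-like mesenchyme, where 2.88% of all genes were higher and 2.7% lower, Nrp2 was 3.32-fold and Nrp1 2.89-fold higher, and Hes1 5.07-fold, Gata2 6.85-fold and Klf4 2.56-fold lower. With doublet calls left out the log2 difference of Nrp1 there was -0.17 in place of 1.53. That alternative clustered and named the cells anew, and its maxillary-like class held 1212 and 763 cells in place of 458 and 390. The cause of the change was not tested. With the reported maxillary-like and nasal-like classes the counts were 4 higher and 1 lower of 10 VEGF, angiopoietin and apelin partners, 0 and 2 of 14 Notch partners, 2 and 3 of 12 transcription factors, 0 and 1 of 9 receptors, 0 and 0 of 22 hypoxia genes and 0 and 1 of 7 tip cell genes.

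Between genotypes there was 1 library each, so no test was possible and the counting intervals below leave out variation between embryos. In endothelium-like cells the ratio of Crect lacZ to wild-type CPM was under 1 for Kdr (0.812, 0.764 to 0.863), Flt1 (0.777, 0.718 to 0.841), Tek (0.773, 0.663 to 0.899), Apln (0.758, 0.633 to 0.907) and Aplnr (0.923, 0.869 to 0.98). It was above 1 for Tie1 (1.24, 1.10 to 1.39) and Flt4 (1.28, 1.12 to 1.46). The intervals of Dll4 (1.23, 0.988 to 1.53), Mfng (1.03, 0.937 to 1.14) and Vegfa (0.814, 0.268 to 2.30) held 1. None of the 10 genes reached a 2-fold ratio there, against 3.07% of the 9339 genes with 50 or more UMIs. Of those genes 4249 were past 1.2-fold, and their median ratio was 0.926, close to that of Aplnr. The share of them whose counting interval left out 1 was not computed. Vegfa in mesenchyme-like cells was at a ratio of 0.763 (0.697 to 0.835), and in ectoderm-like cells, the tissue that Crect is directed to, at 0.961 (0.767 to 1.201). The mesenchyme-like class was made up differently in the libraries, since its chondrogenic-like sub-cluster held 24 wild-type cells (0.303% of the library) and 557 Crect lacZ cells (8.33%). The Vegfa ratio was 2.02 in that sub-cluster (0.546 to 16.9, on 2 wild-type UMIs) and 0.581 to 1.004 in the other 11 with 20 or more cells in each library. Without the chondrogenic-like cells, an alternative chosen after seeing the data, the class ratio of Vegfa was 0.744 (0.678 to 0.817).

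**Figure D5:**
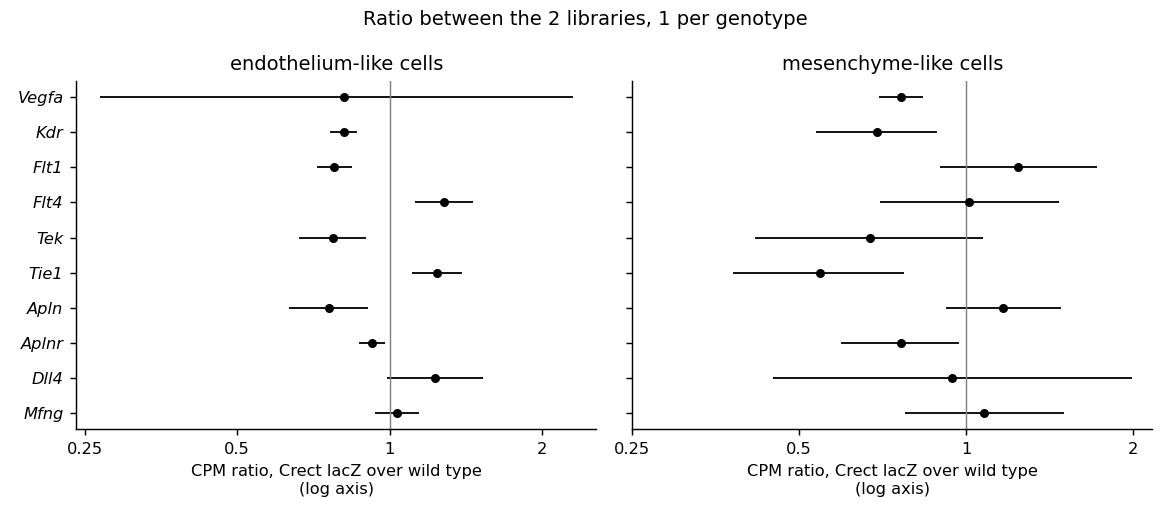
Ratio of Crect lacZ to wild-type CPM (log axis) for each gene in endothelium-like cells on the left and mesenchyme-like cells on the right, with exact 95% intervals for counting error and a line at 1. In endothelium-like cells 5 genes lie wholly under 1 and Flt4 and Tie1 wholly above it. The median ratio there was 0.926 over 9339 genes, and the share of all genes with such intervals was not computed. In mesenchyme-like cells Vegfa, Kdr, Tie1 and Aplnr lie wholly under 1. Kdr, Tie1 and Aplnr stood there at 1.05% or less of their endothelial level, and the part of free endothelial RNA was not tested. Without the chondrogenic-like cells the Aplnr interval (0.613 to 1.01) holds 1 and the Tek interval (0.363 to 0.989) does not.

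The genes whose levels most resembled each member were found over 57 sums of a class or sub-cluster in a library, among 9816 genes, by Pearson's r of log2(CPM + 1). These sums share their libraries and differ in depth, and endothelium-like sums weigh heavily in them, so the values are descriptive. Kdr was most like Epas1 (r = 0.919), Flt1 most like the junction protein gene Pecam1 (0.937), Aplnr most like the junction protein gene Esam (0.907), Tek most like Esm1 (0.939) and Flt4 most like Prl3b1 (0.911). Tie1 was most like 8430408G22Rik (0.879), with Dll4 also among the 3 most alike (0.85). Dll4 was most like Sncg (0.949), Apln most like Cda (0.907) and Mfng most like Rassf2 (0.842). Vegfa was most like Antxr1 (0.875), a membrane receptor gene, followed by St8sia2 (0.869) and Ogt (0.867).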

How the data were processed

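The authors deposited raw counts of unique molecular identifiers (UMIs) per gene and cell barcode, made with version 2 of the 10x Genomics 3' chemistry according to the labels, with no normalization. Per the submitters' processing notes, Cell Ranger 2.0 and build mm10 were used. No source used here gives the barcode filter, annotation or strand setting. The 10 genes and all lists were chosen with earlier results of these data known.

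Barcodes with over 10% mitochondrial UMIs were left out (57 wild-type, 207 Crect lacZ). Doublets were kept. With the expected rate set to 0.06, Scrublet (scanpy 1.11.5) called 170 wild-type barcodes (2.149%) and 2 Crect lacZ ones (0.03%), too few to have worked, so an alternative left out the 170 and the 358 highest Crect lacZ scores. The 2000 most variable genes, without the 10 genes and pathway lists, gave 30 components, 15 neighbours and Leiden clusters at resolution 1.0 (python-igraph 0.11.9). A cluster took the name of its best-scoring marker list if 3 or more of those markers were detected and no other list had more genes among its 10 leading genes. A minimum score was also needed, and clusters of low depth needed a marker of that list among the leading genes. Sub-clusters needed a higher score and a lead over the next list. Clusters that failed stayed unnamed (757 and 611 cells), and sub-clusters holding genes of 2 classes were left out (116 and 61 cells, 22 and 13 of them from endothelium). Endothelial sub-clusters used 500 variable genes, 10 components, cell cycle regressed out and resolution 0.5.

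Counts were summed per library and class and tested with edgeR 4.0.16 in R 4.3.3 (TMM, filterByExpr, quasi-likelihood, library as a block), checked on simulated data. Endothelium, ectoderm and mesenchyme shared a fit with 2 residual degrees of freedom. The arterial and maxillary fits had 1, and in the arterial fit the spread came from all genes alone. TMM scaling makes fitted folds differ from ratios of the printed CPM. Intervals on levels, shares and ratios are exact 95% Poisson, Clopper-Pearson or conditional binomial intervals (scipy 1.17.1) and cover counting error only. Nothing says that the pooled embryos of a library had separate preparations, and each genotype has 1 library. With library as a block, p-values rest on how far class differences varied between these 2 libraries. That spread was shared over genes in part, and wholly in the arterial fit. Each list named at most 2 partners that rose and 2 that fell, those called with the largest change whose sign was shared by both libraries, among genes averaging at least 20 CPM. DESeq2 1.42.0, other scaling, filters, cell definitions and single libraries were tried as alternatives. The transgene entries of the Crect lacZ table entered UMI totals but no test.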

Additional observations from a re-analysis of the deposited data

Results flagged for a closer look

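The ratio of Crect lacZ to wild-type Tie1 CPM was opposite between tissues. It was 0.5445 in mesenchyme-like cells (counting interval 0.381 to 0.773) and 0.3755 in ectoderm-like cells (0.137 to 0.893), on 54 and 7 Crect lacZ UMIs, and 1.238 in endothelium-like cells (1.10 to 1.39). Wild-type mesenchyme-like and ectoderm-like cells held 88 and 25 Tie1 UMIs. Mesenchymal Tie1 was 1.05% of its endothelial level in the wild-type library and 0.463% in the Crect lacZ library. Endothelium-like cells held 4.73% of all UMIs in the wild-type library and 3.69% in the Crect lacZ library. The part of free endothelial RNA in the mesenchymal and ectodermal values was not tested. The difference between tissues was not tested either, since each genotype has 1 library.

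Barcodes above the mitochondrial limit, which entered no comparison, held UMIs of several of the genes beyond the limit of 3 that a count of 0 allows. The 57 wild-type barcodes held 26 UMIs of Aplnr, 16 of Kdr, 11 of Flt1, 10 of Vegfa, 5 of Tie1 and 4 of Tek. The 207 Crect lacZ barcodes held 26 UMIs of Vegfa, 12 of Aplnr, 7 of Flt1, 6 of Kdr and 4 of Flt4.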

How the results depend on the processing

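Endothelium against mesenchyme kept all 10 calls under every alternative run. The library block was the pairing available, since both classes of a library come from 1 suspension. With no replicate block, arterial-like against other endothelium gave 0 members and 0 genes and maxillary against nasal 186 genes, with Dll4 and Apln at adjusted p of 0.22 and 0.336. By DESeq2 the arterial comparison gave 23 genes and 1 member (its adjusted p for Apln was NA) and the maxillary one 335 genes. The arterial comparison also gave 1 member with doublets left out, a mitochondrial limit of 5%, whole-data resolution 0.5, a gate on 2 arterial markers (24 genes), 2000 variable genes, 1000 variable genes and no cell cycle regression (288 genes). The share of higher genes there was 63.11% as reported and with another scaling, 86.96% by DESeq2, 83.33% by the gate, 50% with 1000 genes and 25.35% without cycle regression. The gate gave 2 members for ectoderm. Leaving out a library, with no test left, gave 0 to 1 ectoderm members, 611 to 870 arterial genes, 1 to 2 maxillary members and 923 to 1035 maxillary genes by fold alone. Log2 values that changed sign were, for ectoderm, Aplnr -0.0918 without doublets and -0.0065 at 5%, Vegfa -0.0812 at 5%, and Dll4 0.364 and Flt1 0.1279 by the gate. For arterial-like cells they were Flt4 0.0963 without doublets, Kdr -0.0755, Flt1 -0.0055 and Mfng 0.076 without cycle regression, and Tie1 -0.0497 with 1000 genes. For maxillary they were Tie1 0.0177, Kdr 0.3189, Flt1 -0.0159, Nrp1 -0.1683 and Vegfa 0.0849 without doublets, Flt1 -0.1403 at 5%, and Tie1 0.069 and Vegfa 0.2183 at resolution 0.5. Leaving out doublets, the 5% limit and resolution 0.5 each meant clustering and naming the cells anew, so class sizes changed too. The cause of these sign changes was not tested. Levels moved by less than counting error in 60 of 60 cases without doublets and 59 of 60 at 5%. Detected shares moved in 33 of 60 cases with 5000 in place of 3000 UMIs per cell. Dll4 outside endothelium, with 17 UMIs or fewer in a class, is limited by depth. No gate was made for maxillary against nasal cells.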
